A study of Mus musculus with 14 samples.

Results

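Haem synthesis and iron handling were followed here through 9 genes in the pubertal mouse mammary gland: Alas1, Alas2, Urod, Cpox and Fech, which code for enzymes of haem synthesis, Tfrc, the transferrin receptor, Trf, transferrin itself, Fth1, the ferritin heavy chain, and Hmox1, the inducible haem oxygenase. A probe set was taken as a measure of one of these genes when the array annotation named that gene and no other. By this rule 8 of the 9 genes had 19 of the 22690 probe sets on the array, which name 12394 genes. The only probe set for Trf also names Srprb, so no value is given for transferrin. Of the 19 probe sets, 3 are the array's own control probe sets for Tfrc, 1 of the 4 for Fech was too dim to test, and 15 were tested.

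The samples were whole inguinal mammary glands (the fourth pair) of untreated female CD1 mice, an outbred strain, with the lymph nodes removed. There were 14 Affymetrix arrays, 3 each at 3, 4, 6 and 7 weeks of age and 2 at 5 weeks, called 3wk A to 7wk C below. A pool of RNA from 3 or more mice went onto each array, so the spread between arrays is one between pools, and nothing in the labels says whether pools shared mice. Array values are given in the order A, B, C. The gland is a mixture of fat, epithelium, stroma and blood, and in such bulk RNA fewer cells of a type and less RNA per cell cannot be told apart.

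Haem is made in a chain of enzyme steps that starts and ends in the mitochondrion. The first step, the joining of glycine and succinyl-CoA, is carried out by aminolevulinate synthase, in its housekeeping form ALAS1 in all tissues and its erythroid form ALAS2 in developing red cells. Urod and Cpox act in the middle of the chain, and Fech, ferrochelatase, puts iron into the finished ring. Iron reaches the cell bound to transferrin through the transferrin receptor, surplus iron is stored in ferritin, and haem oxygenase breaks haem down and frees its iron. When iron is short, iron regulatory proteins stabilise the transferrin receptor mRNA and hold back the translation of ferritin and ALAS2.

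The sequences by the starts of the 2 synthases are shown because both genes fell over the series, as described below. The promoter table of RefSeq (GRCm38.p6) held 9 windows, each from 250 bases before to 50 after an annotated start, for 6 of the genes: Alas1, Alas2, Urod, Cpox, Tfrc and Fth1. The stretches below show the GATA and NRF-1 motifs found among the synthases. The first is the 150 bases before the Alas2 start, chrX:150547267-150547416 on the plus strand. Capitals mark a match on the minus strand to the GATA motif AGATAA, which the erythroid factor GATA1 shares with other GATA factors. The second is 30 bases of the minus strand at chr9:106247906-106247935, by Alas1, with capitals for the core of the NRF-1 motif, GCGCATG, which matches on both strands with overlap and is bound by a factor of many mitochondrial genes.
Alas2: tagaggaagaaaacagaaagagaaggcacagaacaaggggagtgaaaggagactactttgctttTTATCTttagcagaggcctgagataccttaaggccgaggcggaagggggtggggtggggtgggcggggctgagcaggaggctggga
Alas1: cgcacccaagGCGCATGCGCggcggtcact

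Both strands were searched for these GATA and NRF-1 letters and for the E-box, CACGTG, and none of the 3 motifs contains another. The GATA match in Alas2 begins at base -86 from the start, and such a match is held by 11.2% of all 32851 windows in the table. The NRF-1 match of Alas1 begins at base 30 from one annotated start and at base -195 from the other, and 3.91% of all windows hold one. The E-box, found in 7.15% of windows, occurred at base -49 from the Urod start. Cpox had a minus-strand GATA match at base 5, and the windows of Tfrc and Fth1 held none of the 3 motifs. These are matches of letters, with no binding measured here.

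The values are ratios: each probe set had been divided by its own median over the 14 arrays, so 1 is the median array, and levels cannot be compared between genes. Differences are given on the log2 scale, where -1 means a halving. They come from a limma fit over all 18480 tested probe sets, with Benjamini-Hochberg adjustment in each comparison and a threshold of 0.05, and a probe set under it is said to be called. All tests were two-sided.

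Across puberty 3 genes were called lower and none higher. The erythroid synthase Alas2 was lower at 7 than at 3 weeks by 1.93 (log2), the transferrin receptor Tfrc by 1.66 at both of its called probe sets, and the housekeeping synthase Alas1 by 0.88. In 7wk against 3wk 4 of the 15 tested probe sets were called, all lower, while 8.55% of all tested probe sets were called and 2.6% were called lower. The median difference was -0.335 over the 15 and 0.0811 over all tested probe sets. The arrays of the 2 ages did not overlap in 7 of the 15, against 28.4% of all. The F test over the 5 ages called the same 4 probe sets, against 10.3% of all.

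**Figure D1:**
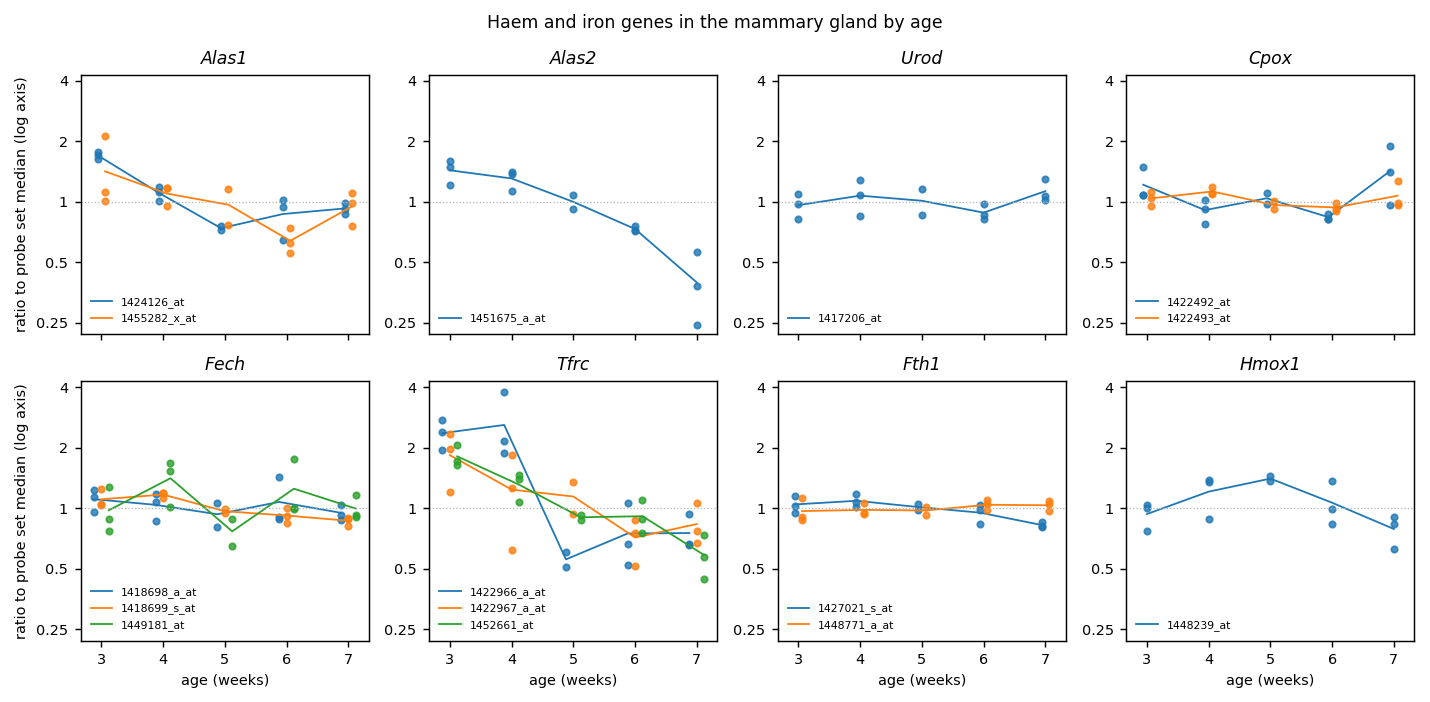
Ratio of each tested probe set to its own median (log axis) by age in weeks for the 8 genes; points are arrays, lines join the age means, and colours are probe sets. Alas2 falls to between 0.244 and 0.566 at 7 weeks, and Tfrc 1422966_a_at lies between 1.876 and 3.773 at 3 and 4 weeks and at or below 1.062 afterwards. The probe sets of Urod, Cpox and Fech show no called change.

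From week to week few changes were called. In 4wk against 3wk 0 of the 15 were called by limma, while 0.152% of all were called. In 5wk against 4wk 1 was called, a lower one, while 0.752% of all were called and 0.438% called lower. In 6wk against 5wk 0 were called by limma, against 0.281% of all. In 7wk against 6wk 0 were called by limma, against 0.958% of all. The neighbouring ages did not overlap in 3, 7, 6 and 5 of the 15 in these comparisons, against 15.2%, 33.5%, 28.9% and 20.8% of all tested probe sets.

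Alas2, the synthase of red cell precursors, has 1 probe set (1451675_a_at). Its ratios were 1.216, 1.492 and 1.599 at 3 weeks, then 1.381, 1.403 and 1.138 at 4 weeks. They were 1.081 and 0.919 at 5 weeks, 0.757, 0.716 and 0.725 at 6 weeks, and 0.566, 0.381 and 0.244 at 7 weeks. The 3wk and 4wk arrays overlap, and from there each later age lies wholly below the one before. The means were 1.44 ± 0.198 (SD, n = 3) at 3 weeks, 1.31 ± 0.147 (n = 3) at 4 weeks, 0.733 ± 0.0215 (n = 3) at 6 weeks and 0.397 ± 0.162 (n = 3) at 7 weeks.

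The difference of Alas2 between 7 and 3 weeks was -1.93 (SE 0.25, limma adjusted p = 0.00107), and the F test over the ages had an adjusted p = 0.00327. It was called in 24 of 24 alternative fits, with differences from -2.28 to -1.62 and adjusted p from 0.00054 to 0.0362. No single week was called. The largest step was from 6 to 7 weeks, at -0.97 (SE 0.25, limma adjusted p = 0.112), and it was -1.26 with an adjusted p = 0.0372 by limma when 7wk A, the highest of the 7wk arrays, was left out. That was the only alternative fit in which this step was called.

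Globin, the protein that carries haem in red cells, had 9 tested probe sets. Of these, 4 name several genes (1 beta-globin, 3 both alpha-globin genes) and 5 name 1 gene. The beta-globin probe set naming several genes (1417184_s_at) was 1.05 ± 0.0815 (SD, n = 3) at 3 weeks, 1.11 ± 0.0660 (n = 3) at 4 weeks and 0.988 ± 0.107 (n = 2) at 5 weeks. It was 0.847 ± 0.204 (n = 3) at 6 weeks and 0.577 ± 0.0488 (n = 3) at 7 weeks. Its 7wk arrays, at 0.633, 0.549 and 0.548, lie below every other array, and the change from 3 weeks was -0.87 (SE 0.17, limma adjusted p = 0.00876). Of the 3 probe sets that name both alpha-globin genes, 2 were called lower at 7 than at 3 weeks, 1428361_x_at at -0.72 (SE 0.15, limma adjusted p = 0.0125) and 1452757_s_at at -0.63 (SE 0.14, limma adjusted p = 0.0193). The remaining one (1417714_x_at) was at -1.15 (SE 0.34, limma adjusted p = 0.0595). These 4 probe sets and Alas2 had their lowest age mean at 7 weeks.

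The probe sets that name 1 globin gene were not uniform. Of the 5, 1 was called lower at 7 than at 3 weeks, namely 1 of the 2 for Hbb-b2 (1427866_x_at), which was at 1.283, 1.051 and 1.376 at 3 weeks and at 0.316, 0.327 and 0.335 at 7 weeks and fell by 1.91 on the log2 scale (SE 0.38, limma adjusted p = 0.0104). The second Hbb-b2 probe set (1427865_at) was at -0.33 (SE 0.27, limma adjusted p = 0.537), and the embryonic gene Hba-x (1448716_at) was at -0.20 (SE 0.63, limma adjusted p = 0.890). The probe sets of Hba-a1 (1453574_at), at 0.91 (SE 0.50, limma adjusted p = 0.317), and of Hba-a2 (1427219_at), at 0.54 (SE 0.35, limma adjusted p = 0.404), differed in the other direction and were not called. Hba-a1 was at 0.333, 0.297 and 0.959 at 3 weeks and at 0.993, 1.029 and 0.614 at 7 weeks, so these ages overlap. Of all 9, 4 were called lower and 0 higher in 7wk against 3wk, against 2.6% and 5.95% of all tested probe sets. Of the same 9, 5 had their lowest age mean at 7 weeks, and the share of all probe sets that did was not taken. Several of the 9 name the same genes, so they are not separate measures.

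**Figure D2:**
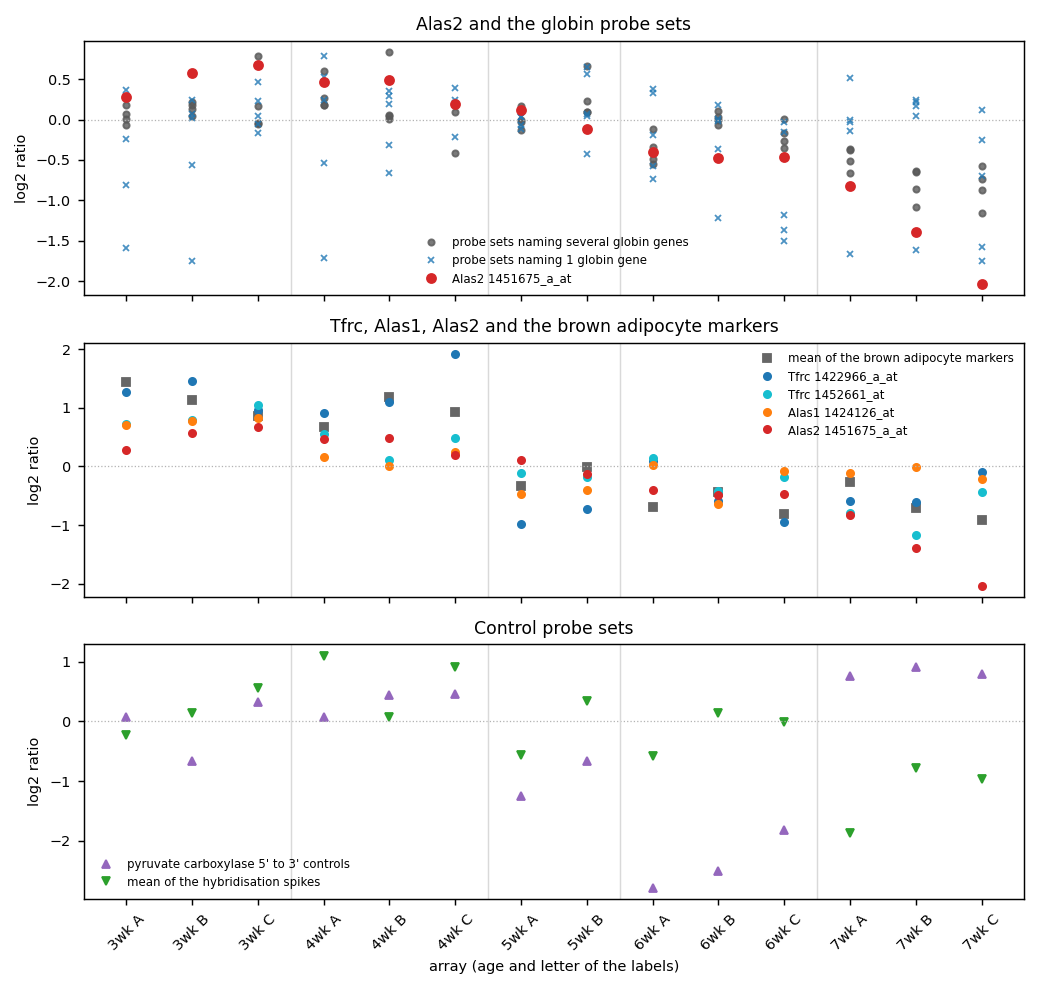
log2 ratios on each of the 14 arrays, with age groups separated by vertical lines: Alas2 with the 9 globin probe sets (top), Tfrc, Alas1 and Alas2 with the mean of the brown adipocyte markers (middle), and 2 measures from control probe sets (bottom). Alas2 and the 4 probe sets that name several globin genes have their lowest age means at 7 weeks, while 4 of the 5 that name 1 globin gene do not, and the brown adipocyte mean and Tfrc 1422966_a_at are high on the 3wk and 4wk arrays and drop at 5 weeks.

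Erythroid markers gave no called change. Of 16 genes listed, 10 had a probe set of their own and 7 were tested (Hba-a1, Slc4a1, Klf1, Gata1, Epor, Rhd and Tal1). In each comparison and in the F test 0 of the 7 were called by limma. Of all tested probe sets 8.55% were called in 7wk against 3wk, 10.3% in the F test and 0.152% to 0.958% between neighbouring ages. Epb42, Car1 and Rhag were below the filter on dim probe sets. The mean of the 7 tested markers per array ran from -0.338 to -0.0818 (log2) at 3 weeks, from 0.0123 to 0.294 at 4 weeks, from -0.257 to 0.170 at 5 weeks, from -0.516 to -0.0958 at 6 weeks and from -0.432 to -0.0976 at 7 weeks. The ranges of 3 and 7 weeks overlap. Between 7 and 3 weeks the 7 differed by -1.63 (Slc4a1, the band 3 anion exchanger of red cells) to 0.91 (Hba-a1), 3 lower and 4 higher, with a median of 0.0491 and none called. The part of red cell or blood RNA in the fall of Alas2 was not tested.

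Alas1, the synthase used by all tissues, has 2 probe sets. The first (1424126_at) was at 1.63, 1.72 and 1.766 at 3 weeks and at 1.123, 1.009 and 1.182 at 4 weeks. It was at 0.722 and 0.757 at 5 weeks, at 1.017, 0.644 and 0.948 at 6 weeks, and at 0.924, 0.991 and 0.866 at 7 weeks. The 3wk arrays stand clear above all others, the 4wk arrays overlap the 6wk arrays, and the age mean was no lower after 5 weeks.

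The lowest age mean of Alas1 was at 5 weeks and that of Alas2 at 7 weeks, a difference in timing that was not tested. At 1424126_at the means from 3 to 7 weeks were 1.71 ± 0.0692 (SD, n = 3), 1.10 ± 0.0879 (n = 3), 0.740 ± 0.0247 (n = 2), 0.870 ± 0.198 (n = 3) and 0.927 ± 0.0626 (n = 3). The change from 3 to 7 weeks was -0.88 (SE 0.16, limma adjusted p = 0.00768), and the F test had an adjusted p = 0.00697. The steps from 3 to 4 weeks, -0.63 (SE 0.16, limma adjusted p = 0.189), and from 4 to 5 weeks, -0.58 (SE 0.18, limma adjusted p = 0.163), were not called, although the arrays overlap in neither.

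The second Alas1 probe set (1455282_x_at) was at 2.118 on 3wk A but at 1.124 and 1.011 on 3wk B and C, within the range of the 4wk and 5wk arrays. Its lowest values were 0.554 to 0.741, on the 6wk arrays. Its change from 3 to 7 weeks was -0.52 (SE 0.28, limma adjusted p = 0.302), and the F test had an adjusted p = 0.129. The fall of Alas1 thus rests on 1 of its 2 probe sets.

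Tfrc, the receptor that brings transferrin iron into the cell, has 3 ordinary probe sets. The first (1422966_a_at) was at 2.405, 2.753 and 1.946 at 3 weeks and at 1.876, 2.152 and 3.773 at 4 weeks. It was at 0.509 and 0.606 at 5 weeks, at 1.062, 0.667 and 0.521 at 6 weeks, and at 0.664, 0.66 and 0.938 at 7 weeks. The arrays fall into a high set at 3 and 4 weeks and a low set from 5 weeks on, and the highest single value is 4wk C.

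The step from 4 to 5 weeks at this probe set was -2.16 (SE 0.34, limma adjusted p = 0.0210), the only called change of these genes between neighbouring ages. It was lost in 7 of 23 alternative fits: without 4wk B (adjusted p = 0.0605 by limma), without 5wk A (adjusted p = 0.0928) or without 5wk B (adjusted p = 0.0811), with the replicate letter as a block, with the mean over the Tfrc probe sets, and with either control measure (described below) as a covariate. From 3 to 7 weeks the change was -1.66 (SE 0.31, limma adjusted p = 0.00756), and the F test had an adjusted p = 0.00273.

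A second Tfrc probe set (1452661_at) declined more evenly. It was at 1.653, 1.727 and 2.065 at 3 weeks, at 1.468, 1.073 and 1.396 at 4 weeks, and at 0.927 and 0.879 at 5 weeks. It was at 1.105, 0.752 and 0.885 at 6 weeks and at 0.574, 0.445 and 0.738 at 7 weeks. The 3wk arrays are the highest and the 7wk arrays the lowest, with no overlap with the ages beside them. Its change from 3 to 7 weeks was -1.66 (SE 0.21, limma adjusted p = 0.000937), called in 24 of 24 alternative fits with adjusted p up to 0.0384.

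The third (1422967_a_at) was noisier, from 1.211 to 2.341 at 3 weeks, from 0.624 to 1.836 at 4 weeks and from 0.675 to 1.062 at 7 weeks. Its change of -1.11 (SE 0.39, limma adjusted p = 0.107) was in the same direction and not called. From 4 to 5 weeks it differed by -0.01 (SE 0.43), where 1422966_a_at dropped sharply, so the 3 probe sets disagree on when the receptor mRNA fell.

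The array also carries control probe sets for the transferrin receptor at the 5′ end, the middle and the 3′ end of the transcript, which had been left out of the tests. The 3′ control was at 1.663, 2.532 and 2.158 on the 3wk arrays and at 0.749, 0.414 and 0.604 on the 7wk arrays. When controls were kept in the fit, it differed by -1.87 (SE 0.25, limma adjusted p = 0.00140) and the 5′ control by -0.76 (SE 0.47, limma adjusted p = 0.387). The middle control was too dim to test and ran from 0.244 to 4.75. The fall is thus seen at the 3′ end, and at the 5′ end the arrays of 3 and 7 weeks overlap.

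**Figure D3:**
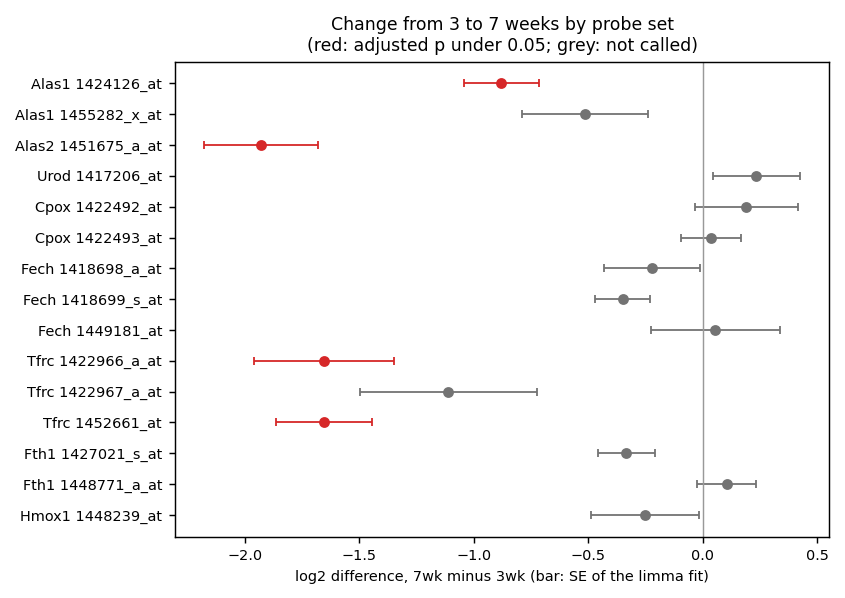
log2 difference between 7 and 3 weeks for the 15 tested probe sets, with the SE of the limma fit as bars; red points have an adjusted p under 0.05. The 4 red points are Alas2 at -1.93, Tfrc at -1.66 for 2 probe sets and Alas1 at -0.88, and the grey points lie between -1.11 and 0.23.

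Most brown adipocyte markers fell over the series, as Tfrc, Alas1 and Alas2 did. Elovl3 did not, at 0.959 ± 0.218 (SD, n = 3) at 3 weeks and 1.30 ± 0.240 (n = 3) at 7 weeks, and was not called. Dio2 was not called at any of its 3 probe sets. Of 15 tested probe sets for 10 genes, 11 (8 genes) were called lower at 7 than at 3 weeks, against 2.6% of all tested probe sets. Of the 15, 0 were called higher, against 5.95% of all, and 3 were called lower at 5 than at 4 weeks, against 0.438%. Their mean per array (log2) was 1.15 at 3 weeks (0.856 to 1.45), 0.925 at 4 weeks (0.670 to 1.18), -0.170 at 5 weeks (-0.336 to -0.00415), -0.644 at 6 weeks (-0.807 to -0.432) and -0.631 at 7 weeks (-0.912 to -0.273). Ucp1, the uncoupling protein that defines brown fat, was at 3.40 ± 1.53 (SD, n = 3) at 3 weeks, 4.05 ± 1.47 (n = 3) at 4 weeks, 0.798 ± 0.298 (n = 2) at 5 weeks and 0.510 ± 0.429 (n = 3) at 7 weeks. Over the 14 arrays, which share the age trend, Pearson r with this mean was 0.858 for Tfrc 1422966_a_at, 0.771 for Tfrc 1452661_at, 0.805 for Alas2 and 0.711 for Alas1 1424126_at. For Alas2 the r with the erythroid marker mean, which holds 1 globin probe set, was 0.438. With the 4 probe sets that name several globin genes its r was 0.841 to 0.874. With the 5 that name 1 globin gene it was -0.249 to 0.790. The part of brown fat in the falls of Tfrc, Alas1 and Alas2 was not tested.

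Other cell type markers moved as well. Of 16 tested probe sets for mammary epithelium 13 were called higher at 7 than at 3 weeks, against 5.95% of all tested probe sets. The mean over the 16 was -1.63 (log2) at 3 weeks and 0.688 at 7 weeks. Of 9 for white and general adipocytes 5 were called lower, against 2.6% of all, with a median difference of -0.443 over the 9. Of 10 for macrophages, which recycle iron from red cells, 1 was called higher, with a median difference of 0.229 over the 10. All 16 epithelial probe sets passed the filter on dim values, and ratios say nothing further on the level of these markers. Over the 14 arrays, which share the age trend, Pearson r was also taken with these means. With the white and general adipocyte mean it was 0.779 for Tfrc 1422966_a_at, 0.773 for Tfrc 1452661_at, 0.800 for Alas2 and 0.490 for Alas1 1424126_at. With the mammary epithelium mean it was -0.878, -0.866, -0.782 and -0.786 in the same order. For skeletal muscle 0 of 6, and for hepatocyte-like cells 0 of 1, were called by limma. Their part in the falls of Alas2, Alas1 and Tfrc was not tested either.

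Measures from the control probe sets were not level over the ages. The actin control (5′ over 3′ probe sets, log2) moved least, with age means from -0.445 (6 weeks) to 0.203 (4 weeks). It was 0.0722 ± 0.122 (SD, n = 3) at 3 weeks and 0.113 ± 0.0634 (n = 3) at 7 weeks, and was not used as a covariate. The pyruvate carboxylase control (5′ over 3′ probe sets, log2) was -0.0890 ± 0.509 (SD, n = 3) at 3 weeks, 0.327 ± 0.213 (n = 3) at 4 weeks, -0.955 ± 0.420 (n = 2) at 5 weeks, -2.37 ± 0.499 (n = 3) at 6 weeks and 0.817 ± 0.0755 (n = 3) at 7 weeks. The mean of the 18 hybridisation spike probe sets (log2) was 0.154 ± 0.395 (SD, n = 3) at 3 weeks and -1.21 ± 0.576 (n = 3) at 7 weeks. With the spike mean as a covariate, the 7wk against 3wk change was -0.88 (limma adjusted p = 0.111) for Alas1 1424126_at and -1.74 (limma adjusted p = 0.098) for Tfrc 1422966_a_at. With the pyruvate carboxylase ratio they were -0.92 (limma adjusted p = 0.0876) and -1.31 (limma adjusted p = 0.161). Alas2 and Tfrc 1452661_at stayed called under both.

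The enzymes between the first and the last step gave no called change in any comparison. Urod, uroporphyrinogen decarboxylase (1417206_at), had age means between 0.884 (6 weeks) and 1.13 (7 weeks), and all 14 arrays lay between 0.818 and 1.3. Its change from 3 to 7 weeks was 0.23 (SE 0.19, limma adjusted p = 0.522). Cpox, coproporphyrinogen oxidase, has 2 probe sets. At 1422492_at the 6wk arrays were at 0.822, 0.87 and 0.825 and the 7wk arrays at 0.963, 1.409 and 1.903, without overlap. That difference of 0.71 (SE 0.23, limma adjusted p = 0.193) was not called, and 7 weeks differed from 3 weeks by 0.19. At 1422493_at the difference from 3 to 7 weeks was 0.04 and all arrays lay between 0.899 and 1.267.

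Fech, which completes haem with iron, has 3 tested probe sets, and none was called. At 1418699_s_at the ratios were 1.048, 1.247 and 1.034 at 3 weeks and 0.89, 0.895 and 0.818 at 7 weeks. These arrays do not overlap, and the difference was -0.35 (SE 0.12, limma adjusted p = 0.0972). At 1418698_a_at it was -0.22 (SE 0.21, limma adjusted p = 0.592) and at 1449181_at 0.05 (SE 0.28, limma adjusted p = 0.933), with the 2 ages overlapping in both. The dim probe set (1427696_at) ranged from 0.518 to 1.772 over the arrays.

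Fth1, the iron-storing ferritin chain, has 2 probe sets that disagreed. At 1427021_s_at the 3wk arrays were at 1.032, 1.158 and 0.948 and the 7wk arrays at 0.81, 0.851 and 0.819, without overlap, a difference of -0.33 (SE 0.13, limma adjusted p = 0.133). At 1448771_a_at the 3wk arrays were at 0.88, 0.903 and 1.126 and the 7wk arrays at 0.968, 1.091 and 1.05, overlapping, a difference of 0.10 (SE 0.13, limma adjusted p = 0.694). Ferritin heavy chain has near-identical copies in the genome, so these values are uncertain as measures of 1 gene.

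Hmox1, which degrades haem, had its highest age mean at 5 weeks, and no comparison called it. Its ratios (1448239_at) were 1.003, 1.038 and 0.771 at 3 weeks, 1.387, 1.358 and 0.889 at 4 weeks, and 1.444 and 1.37 at 5 weeks. They were 1.366, 0.997 and 0.837 at 6 weeks and 0.839, 0.625 and 0.904 at 7 weeks. The 5wk arrays lie above all 3wk and 7wk arrays and overlap the 4wk arrays. The F test did not call it (limma adjusted p = 0.185), and 7 weeks differed from 3 weeks by -0.25 (SE 0.23, limma adjusted p = 0.583).

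Of 60 other genes of haem and iron biology, 49 could be tested with 80 probe sets. In 7wk against 3wk 3 of the 80 were called higher and 3 called lower, against 5.95% and 2.6% of all tested probe sets. The median difference over the 80 was -0.0064. The F test called 12, each from a different gene, which is 15% of the 80 against 10.3% of all tested probe sets. In 4wk against 3wk 0 were called by limma. In 5wk against 4wk 2 were called higher, against 0.314% of all. In 6wk against 5wk 1 was called lower, against 0.238%, and in 7wk against 6wk 2 were called higher, against 0.828%. The other enzymes of haem synthesis that were tested, Alad, Uros and Ppox, had 0 of 4 probe sets called by limma in every comparison.

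The genes Lcn2 and Ltf rose. Lcn2, lipocalin 2, a secreted protein which binds the iron carriers of bacteria, was at 0.197, 0.296 and 0.24 at 3 weeks and at 1.442, 1.532 and 1.188 at 7 weeks. Ltf, lactoferrin, an iron-binding milk protein, was at 0.237, 0.263 and 0.224 at 3 weeks and at 1.136, 1.874 and 0.864 at 7 weeks. In both genes all arrays from 5 weeks on lie above all 3wk and 4wk arrays. Lcn2 rose by 2.52 (SE 0.20, limma adjusted p = 6.7e-05) and Ltf by 2.35 (SE 0.27, limma adjusted p = 0.000563) from 3 to 7 weeks. The steps from 4 to 5 weeks, 1.24 (SE 0.22, limma adjusted p = 0.0325) and 1.80 (SE 0.31, limma adjusted p = 0.0289), were called too. These weekly calls were lost in 11 of 22 alternative fits for Lcn2 and in 7 of 22 for Ltf, in both genes without 4wk A, 4wk B, 5wk A or 5wk B, and for Lcn2 also without 3wk C, 7wk A or 7wk B. Over these ages the mammary epithelium markers rose as given above, and their part in these rises was not tested.

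**Figure D4:**
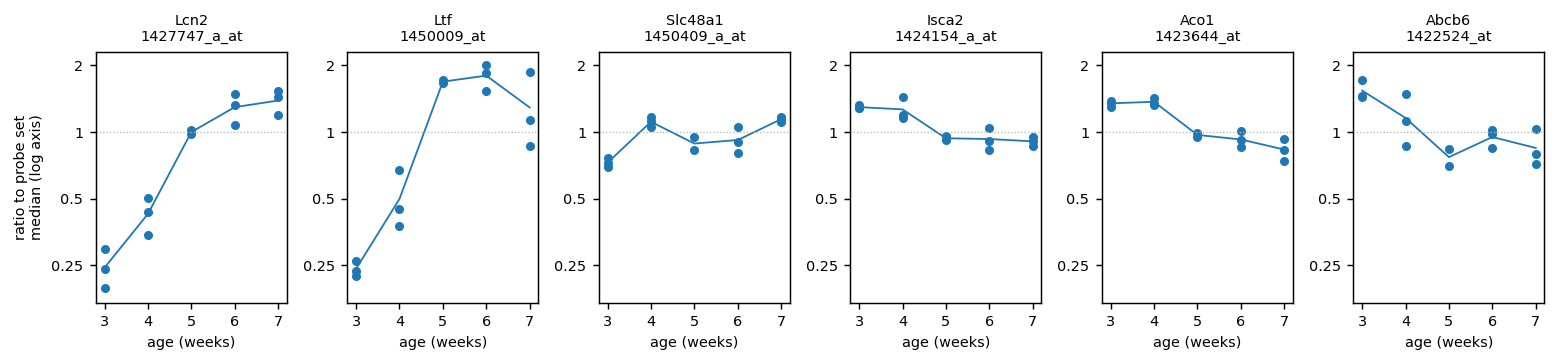
Ratio to the probe set median (log axis) by age for the 6 other haem and iron genes called between 7 and 3 weeks; points are arrays and lines join the age means. Lcn2 and Ltf lie at or below 0.673 at 3 and 4 weeks and at or above 0.864 from 5 weeks on, while Aco1 lies at or above 1.304 at 3 and 4 weeks and at or below 1.006 afterwards.

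Slc48a1, which carries haem out of the lysosome, rose by 0.65 (SE 0.12, limma adjusted p = 0.00868), from 0.693, 0.723 and 0.767 at 3 weeks to 1.147, 1.111 and 1.171 at 7 weeks. The 4wk arrays, at 1.118, 1.055 and 1.165, overlap the 7wk arrays. With either control measure as a covariate it was not called, and its other probe set differed by 0.42 (SE 0.14, limma adjusted p = 0.103).

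Aco1, which is iron regulatory protein 1 when it lacks its iron-sulphur cluster, fell by 0.70 on the log2 scale (SE 0.12, limma adjusted p = 0.00483). Its 6 arrays at 3 and 4 weeks were at 1.304 to 1.429 and its 8 later arrays at 0.74 to 1.006 (1423644_at). A second Aco1 probe set (1456728_x_at) was at 1.119, 1.15 and 1.302 at 3 weeks and at 1.142, 0.859 and 0.911 at 7 weeks, which overlap. With the pyruvate carboxylase ratio as a covariate the first was not called.

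Abcb6, a porphyrin transporter, was at 1.439, 1.461 and 1.718 at 3 weeks and at 0.717, 0.798 and 1.028 at 7 weeks. It fell by 0.87 on the log2 scale (SE 0.20, limma adjusted p = 0.0225), a call that was lost without 3wk B, 3wk C, 7wk A or 7wk B. Isca2, which helps to build mitochondrial iron-sulphur clusters, fell by 0.51 (SE 0.13, limma adjusted p = 0.0279), a call that was lost without any single 3wk or 7wk array. With either control measure as a covariate, and in the fit without the 5wk and 6wk arrays, neither gene was called.

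The remaining 6 genes called by the F test, namely Cp, Smad4, Isca1, Bach1, Epas1 and Steap3, were not called in 7wk against 3wk. Bach1, the haem-sensing repressor of Hmox1, was at 0.365, 0.342 and 0.426 at 6 weeks at 1449311_at, below every other array. It fell 2.82-fold from 5 to 6 weeks (limma adjusted p = 0.0330) and rose 2.44-fold from 6 to 7 weeks (limma adjusted p = 0.0194). Its other probe set (1440831_at) was at 1.2, 1.29 and 1.042 on the 6wk arrays, not low. The 6wk arrays are also those with the lowest pyruvate carboxylase 5′ to 3′ ratio, and with that ratio as a covariate the log2 steps of Bach1 were -1.25 (limma adjusted p = 0.789) and 0.74 (limma adjusted p = 0.999). Their SE rose from 0.23 and 0.21 without the covariate to 0.40 and 0.76 with it. No tested probe set of any gene was called in these comparisons with this covariate, so losing these calls is not particular to Bach1. The fall was lost in 11 of 22 alternative fits, among them those without 3wk B, 4wk A, 4wk B, 5wk A, 5wk B, 6wk A, 6wk B, 7wk B or 7wk C, and the rise in 6 of 22, among them those without 6wk A, 6wk B, 7wk B or 7wk C. Cp, ceruloplasmin, a copper oxidase that acts on iron, had 7 tested probe sets, of which 1 (1417496_at) was called and rose by 1.49 from 6 to 7 weeks (SE 0.30, limma adjusted p = 0.0452), from 0.453, 0.489 and 0.425 to 1.077, 1.603 and 1.22. The other 6 differed by 0.68 to 1.17 over the same step and were not called. That call was lost in 15 of 22 alternative fits, among them those with the spike mean or the pyruvate carboxylase ratio as a covariate. It was also lost in 12 of the 14 that leave out 1 array (all but those without 3wk A or 3wk B).

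For the 3 genes with the smallest F test p, the genes of most similar pattern were ranked by Pearson r of log2 values over the 14 arrays, among tested probe sets that name 1 gene. These r values share the arrays and the age trend and are a description. For Tfrc (1422966_a_at) they were Immt (r = 0.978), Ndufb6 (0.955), Atp5pb (0.950), Acaa2 (0.942) and Hibadh (0.941), which code for mitochondrial proteins. For Alas2 they were Apoc1 (r = 0.944), 9530002B09Rik (0.942), Ggct (0.927), Slc4a4 (0.922) and Plpp1 (0.913). For Alas1 (1424126_at) they were Endog (r = 0.935), Nnat (0.935), Slc1a3 (0.934), Pxmp2 (0.929) and Glud1 (0.915). No gene is in more than 1 of these lists.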

How the data were processed

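Per the labels' protocols, total RNA was labelled as biotin-cRNA and hybridised to Affymetrix arrays. The signal software: not given in the sources used here. Deposited values are linear ratios. The median over arrays was 1 within 0.001 for 98.5% of probe sets, so the authors' table had been divided by probe set medians. In 337 probe sets the median was below 0.98. Values were whole multiples of a step that differed between arrays (1.70 times from lowest to highest), so an array-wide scale had also been applied, and the level in steps was recovered for 6924 probe sets.

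Ratios were log2-transformed without an offset. The 64 control probe sets and 4146 probe sets with a recovered level under 200 steps on at least 13 of 14 arrays were left out, which left 18480. Gene names came from the platform annotation, and 691 probe sets that name several genes and 1606 that name none were not used as measures of a gene. limma 3.58.1 (R 4.3.3) fitted age, as a factor, to the 14 arrays together, tested on simulated data, with an F test and 5 comparisons of ages. Python 3.11.15 with pandas 2.3.3, numpy 2.4.6 and matplotlib 3.10.9 made tables and figures.

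The genes, the lists of other haem and iron genes and the markers were chosen with earlier results of these data known. Other haem and iron genes were named if called by the F test or between 7 and 3 weeks, up to 6 in each direction. Arrays of 1 age served as replicates. The p-values set a difference between ages against the spread between pools within ages, shared over all ages and moderated across probe sets. Whether pools shared mice is not known, and the number of arrays limits the precision. Replicate letters did not pair arrays: deviations from the age means of same-letter arrays correlated at -0.068 to 0.085 over 26 pairs. Alternatives were another filter, normalization, offset, covariate, weights, a letter block, controls kept, gene means and each array left out. Added after seeing the data were the pyruvate carboxylase covariate and a fit without the 5wk and 6wk arrays.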

Additional observations from a re-analysis of the deposited data

How the results depend on the processing

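Alas2 and Tfrc 1452661_at kept their direction and call between 7 and 3 weeks in all 24 alternatives, and no result named in the text reversed. Counts in the following moved by over 1.5 times, and the cause was not tested.

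The calls over all probe sets became, without the filter, 9 (4wk against 3wk), 73 (5wk against 4wk) and 95 (7wk against 6wk). With quantile normalization they were 8, 270 and, for 6wk against 5wk, 33, with 6 other haem and iron probe sets lower at 7 weeks. An offset of 0.1 gave 17 for 4wk against 3wk. With the spikes as a covariate the F test called 1037 and the weekly comparisons 8, 37, 33 and 18, while 7wk against 3wk called 352. Of the haem and iron genes' own 15 probe sets it then called 0 in 5wk against 4wk and 2 in 7wk against 3wk, and 1 of the others was lower. Array weights gave 292 in 5wk against 4wk and 6 others lower. The replicate block gave 9 (4wk against 3wk), 35 (5wk against 4wk, with 0 of the 15) and 2 (6wk against 5wk); for Tfrc 1422966_a_at the 5wk against 4wk change under the replicate block was -2.13 (limma adjusted p = 0.0583), and of the other named calls it ended those of Lcn2 and Ltf from 4 to 5 weeks (1.25 and 1.79) and of Bach1 from 5 to 6 weeks (-1.54). Gene means called 1165 in the F test, 81 in 5wk against 4wk with 0 of the 8 genes, 0 in 6wk against 5wk, 38 in 7wk against 6wk and 5 others lower; the mean over Tfrc differed by -0.90 from 4 to 5 weeks (limma adjusted p = 0.102). With the pyruvate carboxylase covariate the F test called 864, the weekly comparisons 12, 0, 0 and 0, and 7wk against 3wk 327, with 0 of the 15 in 5wk against 4wk, 2 in 7wk against 3wk and 0 others lower; Tfrc 1422966_a_at then changed by -2.66 from 4 to 5 weeks (limma adjusted p = 0.182). Without the 5wk and 6wk arrays 4wk against 3wk called 9, and 1 other was lower.

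Leaving out 1 array at a time gave 0 to 30 (4wk against 3wk), 12 to 209 (5wk against 4wk), 10 to 47 (6wk against 5wk), 44 to 273 (7wk against 6wk) and 924 to 1538 (7wk against 3wk). The 15 had 0 to 1 called in 5wk against 4wk and 0 to 1 in 7wk against 6wk, and 1 to 5 of the others were lower, 5 without 3wk A and 1 without 3wk B, 3wk C, 7wk A or 7wk B. A lone 5wk array is assumed to vary like the other ages.

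What signal over background limits cannot be given, since detection calls were not used here; 1 Fech probe set, a Tfrc control and several red cell markers were too dim to test.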
